A study of Mus musculus with 24 samples.

Results

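Livers of mice given repeated ethanol binges were compared with livers of mice given 1 binge, in both cases on top of 8 weeks of an ethanol diet. The multi-binge group held 4 arrays and the single-binge group 5, which are 9 of the 24 arrays of the series, and both were chosen by sample title alone. All mice were male C57BL/6N and no altered allele is named. Multi-binge mice took the EtOH diet and were given EtOH at 5 g/kg on 2 occasions a week, and single-binge mice took the same diet for the same 8 weeks and were given 1 such dose. Mice on that diet with no binge (5 arrays) and pair-fed mice (4 arrays) are used below as a scale. The labels do not give the age, the number of doses a multi-binge mouse had, the time between the last dose and tissue collection, or whether each array is a mouse of its own. The p-values below therefore cover the spread between arrays, which may be technical.

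A binge is a single large dose of ethanol by mouth. Hepatocytes oxidize ethanol through alcohol dehydrogenases and, at high levels, through the cytochrome P450 enzyme Cyp2e1, and the excess of reduced cofactor and of fatty acids that results is known to fill these cells with triglyceride. Triglyceride is kept in lipid droplets coated with perilipins and with the Cidec protein (also called Fsp27), which enlarges droplets by fusing them. A large dose also raises glucocorticoids and stress signals in liver, with metallothioneins and the cell cycle inhibitor Cdkn1a among the known responders.

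Liver cDNA was labelled with Cy5 and a reference RNA with Cy3, and both were hybridized to 1 Agilent array per sample. The makeup of the reference is uncertain: it is named as a purchased mix of mouse tissue RNA, while another field of that channel says liver. Gene values are log2 Cy5/Cy3, and differences are multi-binge minus single-binge on that scale, where 1 is 2-fold. Each difference was also computed in Cy5 alone and in Cy3 alone, because the 4 multi-binge arrays were scanned together, on slides and in a scan that held no other group, while all single-binge arrays lay in a scan shared with the diet-only and pair-fed groups. Scan and group therefore cannot be told apart. The same holds where multi-binge arrays are set against diet-only or pair-fed arrays, while single-binge arrays share their scan with these.

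The multi-binge arrays were brighter in the reference channel. Median Cy3 intensity was 404 ± 77.2 (SD, n = 4) on multi-binge arrays and 199 ± 35.1 (SD, n = 5) on single-binge arrays, with no overlap (317 to 505 against 161.5 to 242.5; exact permutation test, two-sided, p = 0.00794, the smallest this design allows; adjusted over 5 measures 0.0198). Median Cy5 intensity was 164 ± 36.6 and 153 ± 46.9 (SD, n = 4 and 5; exact permutation p = 0.722). Spots that the scanner software marked as uneven or outlying, which were left out, made up 5.37% of multi-binge arrays and 2.30% of single-binge arrays on average (exact permutation p = 0.00794). Across genes, Cy3 signals of a multi-binge and a single-binge array had a median r of 0.906, against 0.963 among multi-binge arrays and 0.98 among single-binge arrays.

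The 4 multi-binge arrays also fell into 2 close pairs, arrays 1 and 3 and arrays 2 and 4, although each pair spanned both slides. Over the 500 genes that varied most within the other 5 groups, the SD of the difference between arrays 1 and 3 was 0.326 and that between arrays 2 and 4 was 0.269, while the 4 other pairs of multi-binge arrays gave 0.675 to 0.721 and the 32 within-group pairs of the other groups gave 0.469 to 1.52. Of 130 genes that were over 2-fold apart between arrays 1 and 2, 127 differed in the same direction between arrays 3 and 4, with median sizes of 1.18 and 1.09. Repeated spots of a probe on a single array differed with an SD of 0.121 to 0.171 on these arrays. The labels call the 4 arrays separate samples and do not say that any share an extract. Each result is therefore given from a fit in which the 4 arrays count as 4 samples and from a second fit, added after the data were seen, in which the pairs were averaged and the multi-binge group counts as 2. Below, a gene is said to rise or fall only if its Benjamini-Hochberg adjusted p in limma was under 0.05 in both fits, with the 4-array value given first.

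With the arrays as labelled, 5187 of 17306 genes passed, of which 2021 were higher in the multi-binge group (11.7%) and 3166 lower (18.3%). With the pairs averaged, 2867 of 17170 passed, 929 higher (5.41%) and 1938 lower (11.3%). Without multi-binge array 4 the count with arrays as labelled was 3424, of which 1197 were higher. In both fits 929 genes rose (5.37%) and 1935 fell (11.2%), and 59 rises and 323 falls were at least 2-fold. With no test, multi-binge values lay wholly above single-binge values for 8.22% of genes and wholly below them for 13.6%. The reference channel alone, whose RNA has the same name on every array, differed for 9012 genes (52.1%) and Cy5 alone for 8947 (51.7%), and across genes the differences in the 2 channels had r = 0.85. A gene was called led by Cy5 where Cy5 alone passed in the same direction and the Cy3 difference was under 0.5 of the Cy5 difference in size, and led by Cy3 where Cy3 alone passed with a difference at least as large as that of Cy5. Of the 929 rises 231 were led by Cy5 and 496 by Cy3, and of the 1935 falls 913 were led by Cy5 and 321 by Cy3, so rises led by Cy5 were 1.33% and falls led by Cy5 5.28% of all genes (2.67% and 6.71% with 4 arrays). The median difference over all genes was -0.02, and -0.13 when arrays were centred on their medians in place of loess, and the share of higher genes among those passed was 39.0% against 30.5% under that centring and 54.7% under the scanner software's own ratio.

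**Figure D1:**
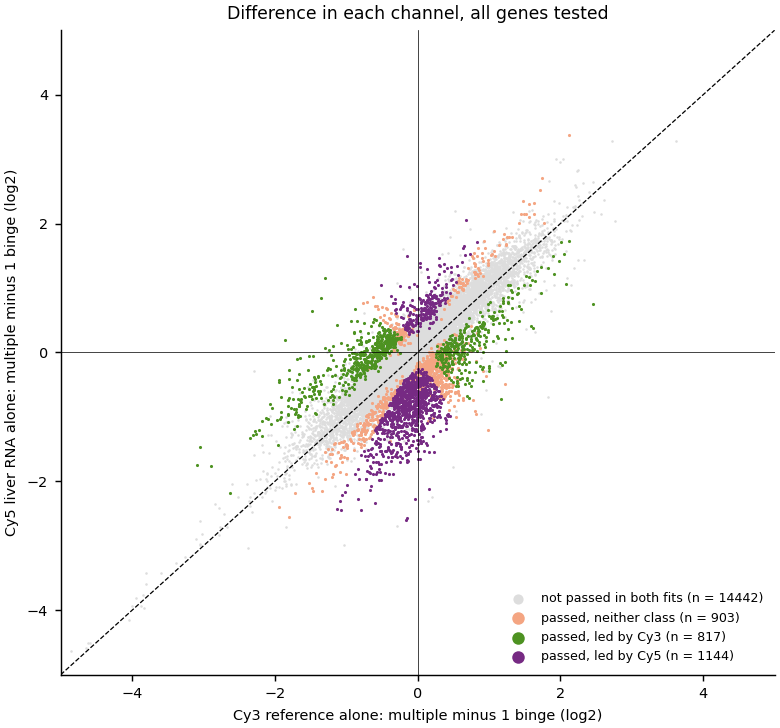
Differences between multi-binge and single-binge arrays (log2) in Cy5 alone (vertical) and in the Cy3 reference alone (horizontal), 1 point per gene; 1 gene lies outside the plotted range. The cloud follows the dashed line of equal differences (r = 0.85); genes passed and led by Cy5 (purple) lie above and below the centre, and genes led by Cy3 (green) lie to its left and right.

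The perilipins Plin4 and Plin5 fell after repeated binges. Of 19 lipid droplet and lipase genes 3 fell (Plin4, Plin5 and Hilpda) and 1 rose (Cideb), a share near that of all genes (11.2% fell and 5.37% rose), and the median difference of the list was -0.39 against -0.02 over all genes. Plin5, a perilipin that ties droplets to mitochondria, had log2 ratios of -0.12, -0.25, -0.13 and -0.31 on multi-binge arrays 1 to 4, against 0.31, 1.05, 0.99, 0.89 and 0.42 on single-binge arrays 1 to 5. The groups did not overlap, and the difference was -0.93 ± 0.14 (SE; adjusted p = 5.92e-05, and 0.00206 with pairs averaged). Plin4, a perilipin of small droplets, stood at 0.04, -0.22, 0.10 and -0.19 on multi-binge arrays, against 0.58, 1.01, 1.38, 1.30 and 1.19 on single-binge arrays. Its difference was -1.16 ± 0.27 (adjusted p = 0.00264 and 0.027). Cy5 alone fell by 1.09 for Plin5 and by 1.79 for Plin4, and Cy3 alone differed by -0.17 and -0.65. On the scale of the diet without a binge, Plin5 was 0.10 above it in the multi-binge group and 1.03 above it in the single-binge group, and Plin4 was 1.12 and 2.28 above it; these 2 differences share the diet-only arrays. Hilpda, an inhibitor of the lipase Atgl, and Cideb, which takes part in lipoprotein lipidation, both owed their differences (-0.68 and 0.61) to Cy3 (0.57 and -0.60), with Cy5 at -0.03 and 0.04. Hilpda did not pass without multi-binge array 2 (adjusted p = 0.0536) or array 4 (0.0516), nor with the mean of its probes (0.069), and Cideb did not under median centring (0.141).

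Cidec itself did not pass. Its ratios were 0.76, -1.24, 0.80 and -1.10 on multi-binge arrays, against 0.20, 1.11, 2.10, 1.36 and 1.50 on single-binge arrays, a difference of -1.45 ± 0.64 (adjusted p = 0.0877, and 0.218 with pairs averaged). Arrays 1 and 3 lay inside the single-binge range and arrays 2 and 4 below it. Arrays 2 and 4 were also inside the diet-only range of -3.16 to -0.94, while arrays 1 and 3 were above it, and the means of the binged groups were 1.76 (multi-binge) and 3.21 (single-binge) above the diet-only mean. Cy5 alone differed by -1.40 and Cy3 by 0.04. Pnpla2, which encodes the droplet lipase Atgl, was measured only on multi-binge arrays 2 and 4 (-0.60 and -0.54) and on 4 single-binge arrays (0.28 to 0.77), so it was not testable with pairs averaged.

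Genes of triglyceride synthesis included Lpin1, the largest fall among genes that passed in both fits. Of 16 tested, 3 fell (Lpin1, Scd1 and Thrsp) and 1 rose (Srebf1), against 11.2% and 5.37% of all genes, with a list median of -0.28. Lpin1, a phosphatidate phosphatase that makes diacylglycerol and also acts as a transcriptional coactivator in fasting, had ratios of -0.49, -3.49, -0.42 and -3.18 on multi-binge arrays, against 0.55, 0.27, 0.48, 0.95 and 0.16 on single-binge arrays. All multi-binge values were below all single-binge values, arrays 2 and 4 by far more than arrays 1 and 3, and the difference was -2.38 ± 0.50 (adjusted p = 0.00127 and 0.00497). Cy5 alone gave -2.57 and Cy3 -0.14, and 2 further Lpin1 probes, each measured on 2 multi-binge arrays, gave -4.09 and -3.88. Scd1, the desaturase that makes oleate, gave -0.65 and -0.67 on the 2 multi-binge arrays where its spot was not marked, against 1.77, 0.76 and 1.47 on 3 single-binge arrays (difference -1.99 ± 0.26, adjusted p = 0.000681 and 0.00184). Scd1 did not pass with its marked spots kept (-1.18, adjusted p = 0.139) or with arrays scaled to each other (-2.83, adjusted p = 0.0655). Thrsp, a lipogenic gene driven by thyroid hormone and diet, gave -2.77, -2.14 and -2.49 on 3 multi-binge arrays, against -0.78, -0.01 and -0.40 on 3 single-binge arrays (difference -2.07 ± 0.37, adjusted p = 0.000575 and 0.0051). Set against the diet-only mean, Thrsp stood at -3.03 in the multi-binge group and at -0.96 in the single-binge group. Srebf1, the sterol and lipogenic transcription factor, rose by 1.34 in the ratio while Cy5 alone gave -0.41 and Cy3 alone -1.80, so its rise lay in the reference channel.

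Fabp4, the fatty acid binding protein of adipocytes and macrophages that ethanol is known to raise in liver, fell. It stood at 0.25, -0.01, 0.09 and -0.19 on multi-binge arrays, against 0.40, 0.89, 0.97, 0.70 and 0.86 on single-binge arrays. The groups did not overlap (difference -0.73 ± 0.13, adjusted p = 0.00035 and 0.00549; Cy5 -1.07, Cy3 -0.35), and the 2 other Fabp4 probes gave -0.91 and -0.61. None of 15 genes of fatty acid oxidation rose or fell. Ppara, the nuclear receptor of that pathway, was 0.69 higher with adjusted p = 0.00863, and 0.0513 with pairs averaged.

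**Figure D2:**
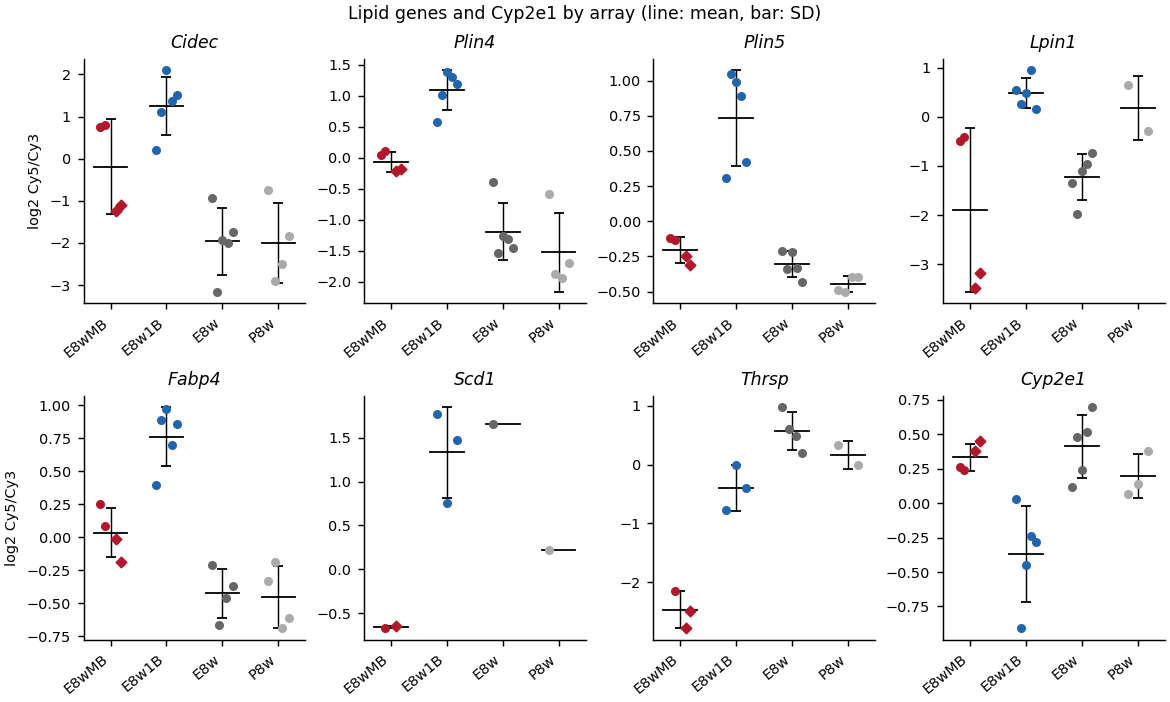
Log2 Cy5/Cy3 of 7 lipid genes and of Cyp2e1 on each array of the multi-binge (E8wMB, red; circles are arrays 1 and 3, diamonds arrays 2 and 4), single-binge (E8w1B, blue), diet-only (E8w) and pair-fed (P8w) groups; lines are means and bars SDs. Plin4, Plin5, Fabp4, Lpin1, Scd1 and Thrsp lie below every single-binge array in the multi-binge group, while Cidec overlaps and Cyp2e1 lies above.

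Several stress and growth arrest genes were lower in the ratio after repeated binges than after 1 binge. Cdkn1a, the p21 inhibitor of cyclin-dependent kinases, had ratios of 0.37, -2.60, 0.49 and -2.43 on multi-binge arrays, against 1.03, 0.92, 1.24, 1.32 and 1.46 on single-binge arrays. Each multi-binge array was below each single-binge array, and arrays 2 and 4 lay just above the range of diet-only arrays (-3.51 to -2.63), while arrays 1 and 3 were nearer to the single-binge values. The difference was -2.23 ± 0.54 (adjusted p = 0.00361 and 0.0147), all of it in Cy5 (-2.27, with Cy3 -0.03). Against the diet without a binge the multi-binge mean was 2.19 higher and the single-binge mean 4.42 higher. Of 15 genes of p53-type arrest 4 fell (Cdkn1a, Gadd45a, Gadd45b and Trp53inp1) and 1 rose (Plk2), against 11.2% and 5.37% of all genes. Only Cdkn1a among these falls was led by Cy5, and Gadd45b and Trp53inp1 were led by Cy3. Gadd45a did not pass without multi-binge array 4 (adjusted p = 0.0556) or in Cy5 alone (-0.30, adjusted p = 0.182). Gadd45b did not pass without multi-binge array 2 (0.0864) or array 4 (0.0944), nor did Plk2 under median centring (0.0532).

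Immediate early and unfolded protein genes gave fewer calls that held in both fits. Over all genes 18.3% were lower with 4 arrays and 11.2% fell in both fits, and the counts of these 2 lists in both fits were near that share. Of 17 immediate early genes 6 were lower with 4 arrays and 2 fell in both fits, Dusp1 and Nr4a1, and the list median was -0.37. Dusp1, a phosphatase that ends MAP kinase signals, was -0.33, -1.13, -0.39 and -0.95 on multi-binge arrays, against -0.03, 0.88, 1.40, 0.22 and -0.37 on single-binge arrays, which overlapped (difference -1.12 ± 0.29, adjusted p = 0.00525 and 0.0379). Nr4a1, an orphan nuclear receptor, fell by 0.37 and did not pass without multi-binge array 2 (adjusted p = 0.0619). Egr1, a zinc finger factor of the same list, did not pass in both fits (-1.38, adjusted p = 0.0147, and 0.067 with pairs averaged), and its Cy3 difference was 1.13 against -0.22 in Cy5. Among 15 genes of the unfolded protein and integrated stress response 6 were lower with 4 arrays and 2 fell in both fits, Ddit3 (-0.64) and Ppp1r15a (-0.49), of which Ddit3 was led by Cy3, with Cy5 alone at 0.28. Ddit4, a stress-induced inhibitor of mTORC1, was 1.02 lower with no overlap between groups, and its adjusted p was 0.0105, and 0.0599 with pairs averaged.

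The metallothioneins, small proteins that bind zinc and copper, fell to intermediate levels. Mt1 had ratios of 1.39, -0.88, 1.35 and -1.06 on multi-binge arrays, against 2.89, 0.81, 2.27, 1.55 and 2.44 on single-binge arrays (difference -1.79 ± 0.49, adjusted p = 0.00863 and 0.0348). Mt2 gave 1.33, -1.47, 1.41 and -1.77 on multi-binge arrays, against 2.14, 0.69, 1.63, 1.30 and 1.73 on single-binge arrays (difference -1.62 ± 0.51, adjusted p = 0.0199 and 0.0441). For both genes arrays 1 and 3 overlapped the single-binge range and arrays 2 and 4 lay below it, and all 4 lay far above the diet-only arrays, whose highest values were -3.55 for Mt1 and -3.15 for Mt2. Mean Mt1 was 4.35 above the diet-only mean after repeated binges and 6.14 above it after 1 binge. Without multi-binge array 4 the adjusted p was 0.0552 for Mt1 and 0.121 for Mt2, and Mt2 also did not pass without multi-binge array 2 (0.101) or single-binge array 1 (0.0515). A part of the differences lay in the reference channel: Cy5 alone gave -0.96 and -0.91 for Mt1 and Mt2, and Cy3 alone 0.82 and 0.80. Of the 8 metallothionein and zinc transporter genes tested, Slc30a1 and Slc39a14 fell too, with Slc39a14 led by Cy3 (1.24, with Cy5 at 0.03). Over all genes 11.2% fell. The other probe of Slc30a1, measured on all 9 arrays, gave -0.05 against -0.53 for the probe used, and Slc30a1 did not pass in Cy5 alone (adjusted p = 0.151) or with the mean of its probes (0.112).

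Fkbp5, a chaperone of the glucocorticoid receptor and a known target of it, was 0.18, -0.51 and -0.38 on multi-binge arrays 1, 2 and 4, against 0.72, 0.82, 0.38, 0.50 and 0.83 on single-binge arrays. The groups did not overlap (difference -0.89 ± 0.19, adjusted p = 0.00133 and 0.0164; Cy5 -0.95, Cy3 -0.12), and 2 further probes gave -1.96 and -1.72 on fewer arrays. Both binged groups were above the diet-only mean, by 1.08 (multi-binge) and 1.97 (single-binge). Fkbp5 and Cdkn1a were the falls among 13 genes of gluconeogenesis, fasting and glucocorticoid response, whose median was -0.48, and none rose. Over all genes 11.2% fell and 5.37% rose. Igfbp1, a fasting and stress gene of hepatocytes, spread from -4.44 to 0.73 over 3 multi-binge arrays and from 0.17 to 1.98 over 4 single-binge arrays (adjusted p = 0.0717, and 0.0392 with pairs averaged), and it is not counted as a fall.

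The chaperone genes Hspa8 and Dnajb1 rose. They were 2 of the 8 cytosolic heat shock genes tested, against 5.37% of all genes, and the other 6 did not pass; the list median was 0.28. Hspa8, the constitutive Hsc70 chaperone, stood at 0.10, 0.63, 0.12 and 0.46 on multi-binge arrays, against -0.49, -0.54, -0.77 and -0.18 on 4 single-binge arrays (difference 0.82 ± 0.15, adjusted p = 0.000807 and 0.00809; Cy5 0.61, Cy3 -0.11). Dnajb1, an Hsp40 partner of Hsp70, was 0.77 ± 0.13 higher (adjusted p = 0.000218 and 0.00135; Cy5 1.31, Cy3 0.42), and its other probe, the one above background in both channels on all 9 arrays, gave 0.25 (adjusted p = 0.173). Both lay above the diet-only mean in the multi-binge group, by 0.23 and 0.36, and below it in the single-binge group, by 0.59 and 0.41.

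**Figure D3:**
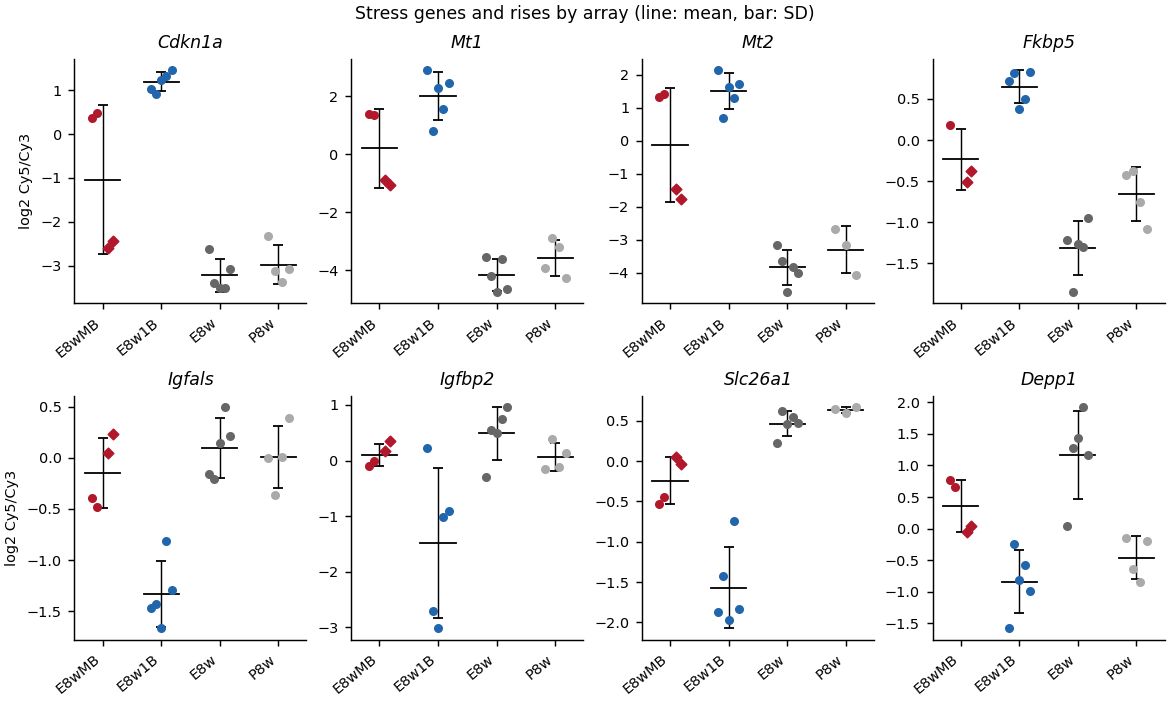
Log2 Cy5/Cy3 of 4 stress genes (upper row) and of 4 rises led by Cy5 (lower row) on each array of the multi-binge (red; circles are arrays 1 and 3, diamonds arrays 2 and 4), single-binge (blue), diet-only and pair-fed groups; lines are means and bars SDs. Cdkn1a, Mt1 and Mt2 split the multi-binge arrays into the pairs 1 and 3 and 2 and 4, and the multi-binge means of the 4 rises lie nearer to the diet-only means than the single-binge means do. The 4 rises were chosen by a difference that uses the single-binge values, which itself favours low single-binge means.

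The largest rises led by Cy5 were genes with lower means after 1 binge than on the diet alone. They were chosen by a difference that uses the single-binge values, a choice that itself favours low single-binge means. Of the 12 largest with 4 arrays, every one of whose multi-binge values lay on one side of the single-binge mean, those that passed in both fits were Igfbp2, Tmem25, Slc26a1, Depp1, Igfals, Cyp2c29 and Ptprd. Slc26a1, a sulfate and oxalate transporter of hepatocytes, was -0.53, 0.05, -0.44 and -0.04 on multi-binge arrays, against -1.87, -1.42, -1.97, -0.74 and -1.84 on single-binge arrays (difference 1.33 ± 0.18, adjusted p = 3.15e-05 and 0.00105). Its other probe gave 0.87. Igfals, the liver-made subunit that holds IGF1 in the circulating complex, was -0.39, 0.05, -0.48 and 0.23 on multi-binge arrays, against -1.47, -1.43, -1.67, -0.81 and -1.29 on single-binge arrays (difference 1.19 ± 0.18, adjusted p = 7.18e-05 and 0.00169; Cy5 1.33, Cy3 0.03). Igfbp2, an IGF binding protein, stood between -0.10 and 0.35 on multi-binge arrays, while the single-binge arrays ran from -3.02 to 0.23, with array 1 inside the multi-binge range (difference 1.58 ± 0.42, adjusted p = 0.0068 and 0.0499). Against the diet without a binge, Slc26a1 was 0.71 lower after repeated binges and 2.04 lower after 1 binge, Igfals 0.24 and 1.43 lower, Igfbp2 0.39 and 1.97 lower, Depp1 0.81 and 2.01 lower, and Tmem25 0.19 and 1.55 lower. Of the 9 genes of the growth hormone and IGF axis, Igfals and Igfbp2 rose and none fell (5.37% and 11.2% of all genes did), while the list median was -0.31. Acot3, Hamp, Phlda1, Angptl8 and Ang were the other 5 (1.61, 1.66, 1.15, 1.04 and 1.03), which did not pass with pairs averaged.

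The ethanol-oxidizing enzymes Adh4 and Cyp2e1 rose. Of 11 genes of alcohol, aldehyde and acetate metabolism these 2 rose (5.37% of all genes did), and 8 did not pass in both fits. Acss3, a mitochondrial acetyl-CoA synthetase family member, fell by 0.38. It did not pass with the scanner software's ratio (adjusted p = 0.0725) or in Cy5 alone (-0.14, adjusted p = 0.456). Cyp2e1, the ethanol-inducible cytochrome P450, had ratios of 0.26, 0.38, 0.24 and 0.45 on multi-binge arrays, against 0.03, -0.91, -0.45, -0.24 and -0.28 on single-binge arrays, with no overlap (difference 0.70 ± 0.16, adjusted p = 0.00288 and 0.0287). Cy5 alone was 1.02 higher and Cy3 alone 0.60 higher, so Cyp2e1 was not led by Cy5 under the rule. It did not pass with the scanner software's ratio (0.42, adjusted p = 0.097) or the deposited values (0.42, adjusted p = 0.0878). Adh4, a class II alcohol dehydrogenase, was -0.40, 0.71 and -0.41 on 3 multi-binge arrays, against -1.76, -1.61, -1.28, -1.10 and -1.58 on single-binge arrays (difference 1.43 ± 0.21, adjusted p = 8.62e-05 and 0.000478), with equal parts in Cy5 (0.77) and Cy3 (-0.77). Both genes were below the diet-only mean in both binged groups, by 0.78 (Cyp2e1) and 2.04 (Adh4) in the single-binge group and by 0.08 and 0.61 in the multi-binge group. Adh1, the main liver alcohol dehydrogenase, was 0.54 higher without overlap (adjusted p = 0.0107, and 0.0659 with pairs averaged).

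Other hepatocyte enzymes rose in small numbers, beside shares of 5.37% higher and 11.2% lower over all genes. Of 14 genes of the urea cycle and amino acid breakdown, Hal (histidine ammonia-lyase, 1.18 ± 0.23, adjusted p = 0.000925 and 0.00427) and Prodh (proline dehydrogenase, 0.61 ± 0.20, adjusted p = 0.0296 and 0.0459) rose and none fell. Prodh was measured on 2 multi-binge arrays only, and did not pass without single-binge array 1 (adjusted p = 0.0596) or array 3 (0.0567), or under median centring (0.27). Among 19 antioxidant genes Gpx1 (0.67) and Keap1 (0.40) rose, both led by Cy3, and Keap1 did not pass under median centring (adjusted p = 0.439). Of 12 xenobiotic P450 and receptor genes Cyp2c29 (1.08 ± 0.28, adjusted p = 0.00614 and 0.0391) and Cyp3a16 (1.25 ± 0.20, adjusted p = 0.000389 and 0.00307) rose and none fell. Cyp3a16 did not pass with the deposited values (0.46, adjusted p = 0.242) or with marked spots kept (0.67, adjusted p = 0.0677), while Cy5 alone gave 3.38. Both genes have near-identical copies whose transcripts the probes may not separate. Of 12 hepatocyte marker genes Trf (transferrin, 0.73) and Cebpa (0.92) rose and none fell, but Cebpa did not pass under median centring (adjusted p = 0.164) or in Cy5 alone (0.51, adjusted p = 0.15). The Cebpa probe used was measured on 2 multi-binge and 3 single-binge arrays, and its other probe, measured on 1 and 5, gave 0.27. With 4 arrays Alb was also higher and Ahsg lower, but not in both fits. The mean log2 Cy5 of the list ran from 14.07 to 14.55 on multi-binge arrays, against 13.58 to 13.97 on single-binge arrays.

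Interferon-stimulated genes were the list with the most rises. Type I interferon acts on its target genes through the interferon-stimulated response element, and Irf7 amplifies the response. In the 250 bases upstream of the RefSeq start site (GRCm38.p6), the core of that element (GAAA, any 2 bases, GAAA, on either strand) was found for 8 of the 13 listed genes that had a promoter in the table, against 2.98% of 32851 promoters. Promoters with matches are shown for a rise with 3 matches, a rise with a single match and the only fall, with the matched letters in capitals.
Isg15, chr4:156200819-156201068, minus strand: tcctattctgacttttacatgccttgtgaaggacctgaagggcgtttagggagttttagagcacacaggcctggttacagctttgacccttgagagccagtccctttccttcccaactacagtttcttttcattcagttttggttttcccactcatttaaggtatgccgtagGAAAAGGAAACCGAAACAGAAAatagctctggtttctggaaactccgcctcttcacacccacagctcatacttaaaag
Gbp2, chr3:142620413-142620662, plus strand: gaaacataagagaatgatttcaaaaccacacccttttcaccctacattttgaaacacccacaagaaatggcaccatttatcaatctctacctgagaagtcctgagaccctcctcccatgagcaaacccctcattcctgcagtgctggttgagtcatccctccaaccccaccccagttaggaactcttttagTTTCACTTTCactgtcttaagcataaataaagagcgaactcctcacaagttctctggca
Rsad2, chr12:26456453-26456702, minus strand: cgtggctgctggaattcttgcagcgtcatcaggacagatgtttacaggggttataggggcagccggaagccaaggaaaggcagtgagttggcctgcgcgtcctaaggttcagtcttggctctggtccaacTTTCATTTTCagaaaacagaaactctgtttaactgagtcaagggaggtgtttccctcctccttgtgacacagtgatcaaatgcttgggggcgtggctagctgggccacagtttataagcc
The motif was present for 3 of 5 rises with a promoter in the table, for the 1 fall and for 4 of the 7 genes that did not pass in both fits.

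Of 18 interferon-stimulated genes tested 5 rose (Irf7, Isg15, Cxcl10, Gbp2 and Oasl1) and 1 fell (Rsad2), against 5.37% and 11.2% of all genes. With 4 arrays the counts were 8 and 2, against 11.7% and 18.3% of all genes. The list median was 0.39, against -0.02 over all genes. Irf7 had ratios of 0.12, 0.28, 0.32 and 0.36 on multi-binge arrays, against -0.53, -0.50, -0.75, -0.73 and -0.95 on single-binge arrays. The groups did not overlap (difference 0.96 ± 0.15, adjusted p = 6.13e-05 and 0.00206; Cy5 0.76, Cy3 -0.34). Isg15, a ubiquitin-like modifier, was 0.24, 0.86, 0.24 and 0.88 on multi-binge arrays, against 0.03, -0.15, -0.35, -0.75 and -0.58 on single-binge arrays (difference 0.92 ± 0.18, adjusted p = 0.000687 and 0.00806; Cy5 0.76, Cy3 -0.31). Every multi-binge array was again above every single-binge array, and arrays 2 and 4 were the higher pair. Gbp2, a guanylate-binding protein, rose by 0.41 ± 0.10 (adjusted p = 0.00251 and 0.024, and 0.197 with the scanner software's ratio; Cy5 0.53, Cy3 0.17), and Oasl1 by 0.80 ± 0.22 (adjusted p = 0.00915 and 0.0411, 0.0569 without multi-binge array 4 and 0.0897 under median centring; Cy5 1.23, Cy3 0.31).

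Irf7 and Isg15 were 0.60 and 0.62 above the diet-only mean after repeated binges, and 0.36 and 0.29 below it after 1 binge. Cxcl10, a chemokine induced by interferon, was 0.28, 0.57, 0.33 and 0.81 on multi-binge arrays, against -0.58, 0.19, -0.41, -0.14 and -0.39 on single-binge arrays (difference 0.76 ± 0.13, adjusted p = 0.000166 and 0.00292). Its Cy5 signal stood clear of background on 4 of 4 multi-binge arrays and 1 of 5 single-binge arrays, so the size of its difference rests on values near background; it ran from 0.66 to 2.87 over the alternatives, and both channels were higher (Cy5 2.36, Cy3 1.48). Rsad2, the antiviral enzyme viperin, fell by 0.60 in the ratio (adjusted p = 0.00289 and 0.0192), but Cy5 alone was 0.53 higher with Cy3 1.03 higher, and its 2 other probes gave 0.29 and 0.43, so its direction depends on the channel and the probe. Gbp3, Ifit2 and Oasl2 were 0.61, 0.42 and 0.38 higher, and their adjusted p of 0.00673, 0.0131 and 0.0271 became 0.0505, 0.0561 and 0.106 with pairs averaged. In Cy5 alone Ifit2 differed by only 0.02 (adjusted p = 0.92).

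**Figure D4:**
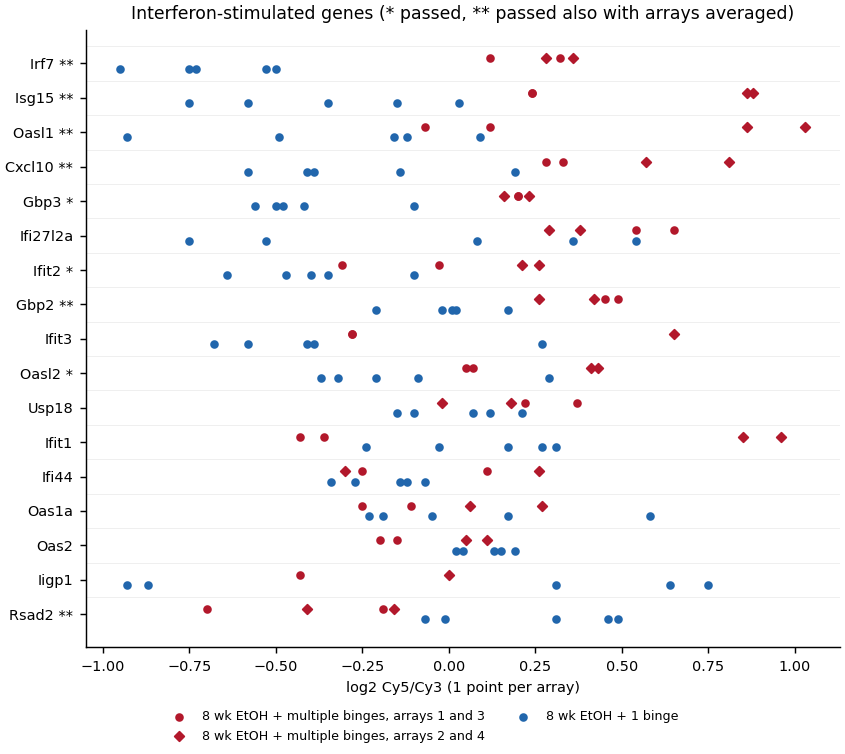
Log2 Cy5/Cy3 of 17 of the 18 interferon-stimulated genes tested, 1 point per array, with multi-binge arrays (red; circles are arrays 1 and 3, diamonds arrays 2 and 4) drawn above single-binge arrays (blue) in each row. Irf7, Isg15 and Cxcl10 show no overlap with multi-binge arrays to the right, while Ifit1 and Ifit3 spread the multi-binge arrays widely.

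Acute phase genes did not rise or fall in both fits. Of 17 tested, 1 was higher (Hamp, which encodes hepcidin) and 1 lower (Cp, ceruloplasmin) with 4 arrays, against 11.7% and 18.3% of all genes. The list median was -0.35. Hamp was 0.54, 0.50, 0.24 and 0.18 on multi-binge arrays, while single-binge arrays ran from -3.73 to 1.15 (adjusted p = 0.0448, and 0.16 with pairs averaged). Saa1, a serum amyloid A gene with close copies, was -1.96, -2.43, -2.17 and -2.48 on multi-binge arrays, while single-binge arrays ran from -4.02 to 1.93, with array 2 the lowest (difference -1.97 ± 1.00, adjusted p = 0.138). Lcn2, lipocalin 2, spread widely in both groups, from -2.59 to 0.26 on multi-binge arrays and from -2.35 to 1.39 on single-binge arrays (difference -1.18, adjusted p = 0.264), and the group means were 3.77 and 4.94 above the diet-only mean.

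Several neutrophil granule genes fell. In these whole-tissue samples fewer cells of a type and less RNA per cell cannot be told apart. Of 13 neutrophil markers 5 fell (Camp, Ltf, Ngp, Mmp9 and Retnlg) and none rose, against 11.2% and 5.37% of all genes, with a median of -0.45. Another marker of the list, Csf3r, passed as higher with 4 arrays but not in both fits. The mean log2 Cy5 of the list was 8.45 to 8.89 on multi-binge arrays, against 9.12 to 9.46 on single-binge arrays, and none of the 13 was below background on all 9 arrays. The 5 falls were granule and secreted protein genes, and S100a9, the abundant cytosolic marker, was 0.45 lower without passing (adjusted p = 0.0938). Ltf (lactoferrin) was lower than on every array of the single-binge scan, but its other probe gave 0.03. Camp (cathelicidin) differed by -0.16 in Cy5 alone and by 0.52 in Cy3, and Retnlg was led by Cy3. Mmp9 did not pass with the scanner software's ratio (adjusted p = 0.0651).

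The counts for macrophage, lymphocyte and endothelial markers were small beside shares of 5.37% higher and 11.2% lower over all genes. Of 17 Kupffer cell and macrophage markers, where the shares were near those of all genes, Cd5l rose (0.70, led by Cy3) and Csf1r and Itgam fell (-0.49 and -1.18), and the other probes of Csf1r gave -0.68 and 0.62 and that of Itgam 0.25. Among 12 lymphocyte markers Cd79a, a B cell receptor subunit, fell by 1.41 ± 0.21 (adjusted p = 4.63e-05 and 0.00143), Klrb1c fell by 0.85, and Nkg7 rose by 1.09 in the ratio while both of its channels were lower. Of 13 sinusoidal endothelial markers Clec4g (0.56) and Kdr (0.67) rose and Lyve1 (-0.88) and Pecam1 (-0.42) fell. Clec4g did not pass under median centring (adjusted p = 0.25), and Csf1r did not with the mean of its probes (0.168). Lyve1, a hyaluronan receptor, was 0.22, -0.36, 0.27 and -0.35 on multi-binge arrays, against -0.02, 1.41, 1.04, 0.99 and 0.74 on single-binge arrays, and the difference was -0.88 ± 0.23 (adjusted p = 0.0066 and 0.0435), with -1.09 from its other probe. Only single-binge array 1 overlapped the multi-binge arrays. Both binged groups stood above the diet-only mean of Lyve1, by 1.56 (multi-binge) and 2.44 (single-binge).

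Of 9 adipocyte markers Fabp4 and Retn fell and none rose, while over all genes 11.2% fell and 5.37% rose. Retn did not pass in Cy5 alone (-0.27, adjusted p = 0.0774). The mean log2 Cy5 of that list was 8.51 to 8.71 on multi-binge arrays, against 9.18 to 9.44 on single-binge arrays. Markers of tissues that liver lacks were among the genes that passed. Among 10 brain and testis markers 3 fell and 1 rose, among 10 exocrine pancreas markers 1 fell and none rose, and among 10 skeletal muscle markers 1 fell and none rose. For brain and testis markers the mean log2 Cy5 was 7.64 to 7.92 on multi-binge arrays, against 8.07 to 8.31 on single-binge arrays. The part of these shifts in the results for other cell types was not tested. Of 18 DNA replication and mitosis genes 5 fell (Foxm1, Ccna2, Birc5, Cdc20 and Rrm2) and none rose, but Rrm2 was 0.92 higher in Cy5 alone and fell in the ratio through Cy3. The list median was 0.06, against -0.02 over all genes, of which 11.2% fell. Mcm2 and Pcna passed as higher with 4 arrays, both led by Cy5, but not in both fits. Cdc20 and Rrm2 did not pass with the scanner software's ratio (adjusted p = 0.116 and 0.202). Foxm1, a transcription factor of mitotic genes, fell by 0.74 ± 0.13 (adjusted p = 0.000259 and 0.00353), and it lay below every array of the single-binge scan, diet-only and pair-fed arrays included.

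The remaining lists gave few calls, beside shares of 5.37% higher and 11.2% lower in both fits over all genes. Of 19 cholesterol genes Insig1 and Abcg8 rose and Stard4 fell, and of 12 bile acid genes Nr0b2 and Fgfr4 rose. All of these rises were led by Cy3, and Abcg8 did not pass in Cy5 alone (0.48, adjusted p = 0.327). Stard4 did not pass when multi-binge array 2, 3 or 4 or single-binge array 1 or 3 was left out (adjusted p = 0.0548 to 0.108), or with the mean of its probes (0.423), and its 2 other probes gave -0.01 and 0.17 against -0.64. Among 23 cytokines, chemokines and adhesion molecules Ccl4 and Cxcl10 rose and Il10 fell, and of 16 stellate cell and matrix genes 1 passed, Col3a1, with a list median of -0.21. The Col3a1 probe used was measured on 2 multi-binge arrays (-0.81), and its other probe, measured on all 9 arrays, gave 0.19. Of 20 autophagy and apoptosis genes Becn1 and Tfeb rose and Ulk1 and Bcl2l11 fell. No gene passed in both fits among 9 cholangiocyte markers or 8 erythroid genes; with 4 arrays 2 and 1 of these were lower. Of 12 female-predominant liver genes 1 rose (Cyp3a16), with a list median of 0.52, and of 8 male-predominant genes Nudt7 rose and Cyp4a12a fell. In Cy5 alone Insig1, Tfeb and Nudt7 were lower (-0.42, -0.54 and -0.46) and Ulk1 was higher (0.38), against their directions in the ratio. Under median centring Insig1, Nr0b2, Becn1 and Nudt7 did not pass (adjusted p = 0.0507, 0.0655, 0.32 and 0.0737), nor did Bcl2l11 with the scanner software's ratio (0.107) or Ccl4 with the replicate number as a block (0.0868).

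Clock genes differed mainly through the reference. Of 17 clock and PAR bZIP genes 2 rose and 2 fell in both fits, against 5.37% and 11.2% of all genes. Of the 9 that passed with 4 arrays 6 were led by Cy3. Dbp, an output gene of the clock, was -0.39, 0.50, -0.24 and 0.37 on multi-binge arrays, against -2.17, -1.13, -1.79, -2.15 and -2.11 on single-binge arrays (difference 1.93 ± 0.27, adjusted p = 3.76e-05 and 0.0012). Cy5 alone gave 0.19 and Cy3 -1.86. Nfil3, a repressor that opposes Dbp, fell by 0.89 ± 0.23 in the ratio (adjusted p = 0.00627 and 0.0428) and by 1.24 in Cy5, and its other probe gave -0.80.

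Keg1 and Apol7a, with Dbp and Upp2, were the 4 largest rises led by Cy3. Keg1 was -0.85, 0.92, -0.70 and 1.18 on multi-binge arrays, against -2.58, -2.35, -1.92, -1.02 and -2.29 on single-binge arrays (difference 2.17 ± 0.39, adjusted p = 0.000332 and 0.00321). Its other probe gave 2.20, and Cy5 alone still gave 1.16, with Cy3 at -1.29. Apol7a differed by 2.02 in the ratio and by 0.65 in Cy5, and Upp2, a uridine phosphorylase, by 2.11 and 0.84 on 2 and 4 arrays. Among the falls, Frmd8 was 1.63 lower in the ratio and 0.76 higher in Cy5 alone, because Cy3 was 2.45 higher, and Slc25a22, a glutamate carrier, was 1.89 lower with Cy3 1.17 higher. Retreg1, an endoplasmic reticulum receptor of autophagy, had the most negative ratio difference of all (-2.48) but could not be tested with pairs averaged.

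The 12 largest falls led by Cy5 with 4 arrays were of 2 kinds. Lpin1, Cdkn1a and Tnfrsf12a were higher after 1 binge than on the diet alone, by 1.71, 4.42 and 2.84. The choice of genes by their difference from the single-binge values itself favours high single-binge means. Tnfrsf12a was measured on multi-binge arrays 2 and 4 only, so it could not be tested with pairs averaged. The other 9 of the 12 (Nin, Zdhhc3, Capn12, Rabgap1, Kcnq1ot1, Nhlh1, Ttc25, Slfn14 and Creb1) differed from the diet alone by only 0.05 to 0.28 after 1 binge, and on their probes every multi-binge array was below every array of the single-binge scan. Capn12, a calpain protease, was -0.10, -0.26, 0.54 and -0.55 on multi-binge arrays, against 1.91, 1.99, 1.46, 1.33 and 1.49 on single-binge arrays (difference -1.73 ± 0.21, adjusted p = 1.01e-05 and 0.000322). Diet-only arrays ran from 1.07 to 1.81. Its other probe gave -0.12, and the other probes of Creb1 gave 0.19 and 0.02, of Rabgap1 -0.14 and 0.16, and of Zdhhc3 -0.36.

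This contrast between probes held over the larger set. Multi-binge arrays lay below all arrays of the single-binge scan for 6.71% of all genes and above them for 1.65%. Of 251 falls of at least 2-fold of that kind, 107 had another measured probe, and in 6 (5.61%) the other probes moved at least 0.5 as far, with medians of -1.23 for the probe used and -0.03 for the others. For the 72 other 2-fold falls, 30 had another probe and 6 (20%) moved that far, with medians of -1.09 and -0.29. Of 59 rises of at least 2-fold, 23 had another probe and 14 (60.9%) moved that far, with medians of 1.16 and 0.74. The probe used was the brightest among those measured in every group, where a gene had any, so these shares are descriptions with no test.

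**Figure D5:**
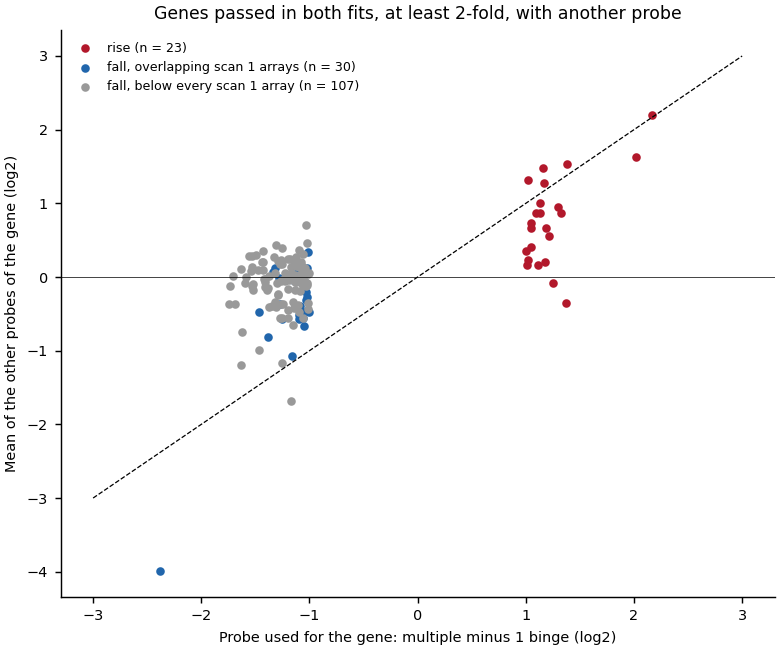
Difference between multi-binge and single-binge arrays (log2) on the probe used (horizontal) and the mean over the gene's other measured probes (vertical), 1 point per gene that passed in both fits with at least 2-fold difference. Rises (red) lie along the dashed line of equal values more often than falls below every array of the single-binge scan (grey), which lie near 0 on the vertical axis (median -0.03).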

How the data were processed

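Labelled cDNA of 24 mouse livers (Cy5) and a reference (Cy3) was measured on Agilent 2-colour arrays, and each spot's median signal and background were deposited as intensity values, per the file headers. Log10 ratios in the same files were deposited as the software (Agilent Feature Extraction 11.5.1.1, per the submitters' processing notes) gave them. The table of deposited log2 ratios followed those ratios with slopes of 1.00 to 1.01, and its headers do not say how it was made. Spots marked as non-uniform or outlying were left out, background was corrected with normexp (offset 50), and arrays were normalized by loess in limma 3.58.1 (R 4.3.3, statmod 1.5.0, data.table version 1.17.8). Cy5 and Cy3 alone were quantile-normalized within the channel. A probe was kept if 3 or more of 24 arrays had it above background in Cy5 by the software's call. The brightest kept probe stood for a gene, with probes measured on at least 2 unmarked arrays of every group taken first. Names came from RefSeq accessions (GRCm38.p6, names only), and 28006 of 41174 probes had 1 symbol. A gene needed 2 unmarked arrays in both groups, which 17306 of 17892 genes met; the other genes were brighter (median log2 Cy5 11.63 against 8.31), and with marked spots kept 17892 genes were tested, 12.3% higher and 18.2% lower.

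limma's lmFit and eBayes fitted 6 group means over all 24 arrays, with Benjamini-Hochberg adjustment over all genes. In simulated data on 17174 genes, 95 of 100 changes of 1 log2 unit and 100 of 100 of 2 units were recovered, with 12 false calls. The simulated arrays were independent of each other and only the fit with 4 multi-binge arrays was run. These figures therefore do not cover the close pairs, the fit with pairs averaged or the calls made in both fits. Genes named were Cidec, the 12 largest rises and 12 largest falls led by Cy5, the 4 largest each way led by Cy3, and from each list up to 4 that passed and 2 that did not; Saa1, Lcn2, Egr1, Gadd45b, Hilpda, Gbp3, Ifit2, Oasl1, Oasl2, Rsad2, Mmp9 and Cdc20, with Ifit1 and Ifit3 in a caption, were added after their values were seen. The comparison, the lists and the genes were chosen with earlier results of these data known. The result for 1 listed gene is not reported here. No array was left out, and the number of arrays limits the precision.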

Additional observations from a re-analysis of the deposited data

Results flagged for a closer look

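Among 211 sets of 4 or 5 array values examined for the genes named, 5 had an array far from the others by Dixon's test, which flags about 1 set in 20 by chance. Single-binge array 1 had Adh1 at -0.73 with the next lowest at 0.05, Bcl2l11 at -0.08 with the next at 0.35, and Retreg1 at 1.83 with the next highest at 0.59. Single-binge array 3 had Upp2 at -3.52 with the next at -1.96, and multi-binge array 1 had Keap1 at 0.03 with the next at 0.12.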

How the results depend on the processing

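The count of 5187 genes fell to 2867 (929 higher and 1938 lower) with multi-binge arrays 1 and 3, and 2 and 4, averaged, an alternative chosen after seeing the data. It was 8947 in Cy5 alone (4093 higher and 4854 lower) and 9012 in Cy3 alone (3916 higher and 5096 lower). The deposited values gave 3142 higher genes (55.8% of those passed) and a fit of the 9 arrays alone gave 1264. Leaving out each array in turn gave 3424 to 5674 genes, of which 1197 to 2298 were higher, with the lowest counts without multi-binge array 4. With the replicate number as a block 3892 genes passed, but the numbers do not pair the arrays (r of 0.22, 0.01, -0.01 and 0.36 between arrays of the same number). Of 122 named genes 115 passed with 4 arrays, and 44 of these passed in the same direction under all 25 alternatives that could be computed for them. Among genes that passed in both fits, Clec4g, Gadd45b, Hilpda, Igfbp2, Il10, Kdr, Mt2, Nr4a1, Prodh, Stard4 and Trp53inp1 did not pass with the 9 arrays fitted alone (adjusted p = 0.0531 to 0.108), and Bcl2l11, Ccl4, Gadd45b, Il10, Lyve1, Nudt7 and Prodh did not with the replicate number as a block (0.0501 to 0.136). The sign turned for 15 genes. In Cy5 alone, also with the 9 arrays fitted alone, Srebf1 was -0.41, Insig1 -0.42, Nudt7 -0.46, Tfeb -0.54, Nkg7 -0.79, Slc39a14 0.03, Ddit3 0.28, Ulk1 0.38, Rsad2 0.53, Frmd8 0.76 and Rrm2 0.92. With the mean of all kept probes Rsad2 was 0.04, and with probes above background in both channels on all 9 arrays Rabgap1 was 0.16 and Col3a1 0.19. Il10 was 0.02 under median centring. Ifit1 (0.16, adjusted p = 0.602) was -0.05 under median centring, and -0.08 to 0.38 when a multi-binge array was left out, below 0 without array 2 or array 4. The cause of these changes was not tested. Dim probes, spots marked on some arrays, the scan that holds the multi-binge group alone and the close pairs within it limit what these arrays can show.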
